A study of Mus musculus with 6 samples.

Results

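The 34 genes described here carry fatty acids through lipolysis and oxidation, and they were chosen by function: enzymes of mitochondrial and peroxisomal beta-oxidation, lipases and lipid droplet proteins, and targets and regulators of the nuclear receptor PPAR alpha. Of these, 32 were represented by a probe set with a single gene symbol among the 18193 genes of the array table, each read by its brightest probe set. Acsl1 and Cyp4a10 were not analysed here. The samples were ileal mucosa, labelled as terminal ileum, of female mice of the 129S6 background, 3 months old. The 3 Duoxa-/- samples came from mice without the DUOX maturation factors, the proteins that dual oxidases need to reach the cell surface and release hydrogen peroxide there. The 3 wt samples came from their littermates in the same cages. Each sample was RNA pooled from 2 to 3 animals of 1 genotype in 1 of 3 cages, a cage was 1 litter, and each pool was read on 1 array. The sources used here name no construct for the Duoxa-/- allele.

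Values are log2 expression as deposited, and differences are Duoxa-/- minus wt on that scale. The 6 arrays had medians of 6.55 to 6.60 and any 2 of them had an r of 0.994 to 0.998 over the probe sets. Duoxa2, a gene of the deleted locus, read 5.90, 5.55 and 5.92 in the Duoxa-/- pools of cages 1, 2 and 3, against 8.81, 8.36 and 7.24 in the wt pools, without overlap. The difference was -2.34 (SE 0.34), or 5.08-fold lower, with limma's unadjusted p of 0.000121 and adjusted p of 0.76. At 3 pools per genotype, the adjusted test thus did not call a difference of that size. The sources used here do not say whether the Duoxa2 probe set lies in the deleted part. The ileal bile acid genes Fabp6 (14.68, 14.66 and 14.83 in Duoxa-/- and 14.76, 14.64 and 14.77 in wt pools) and Slc10a2 were bright in every pool, while Lct, the lactase of the proximal gut, lay between 4.25 and 4.46.

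Fatty acids stored in lipid droplets are freed by lipases, joined to coenzyme A, carried into mitochondria as carnitine esters and shortened there by repeated rounds of dehydrogenation, hydration, oxidation and thiolysis. Peroxisomes shorten very long and branched chains, and microsomal enzymes oxidise the far end of the chain. PPAR alpha, which binds fatty acids, switches on genes of all these steps. In the small intestine the pathway serves enterocytes that meet large loads of dietary fat.

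No member passed the test between the genotypes once p was adjusted over the whole table. With limma, 0 of 32 members were lower and 0 higher at an adjusted p under 0.05, as in the whole table (0% of 18193 genes in either direction), and the members' adjusted p were all at least 0.811. At an unadjusted p under 0.05, 4 of 32 members (12.5%) were lower, against 3.66% of all genes, and 0 were higher, against 1.87% of all genes. The 4 were the lipases Pnpla2 and Lipe, the kinase Pdk4 and the beta-oxidation subunit Hadha. The count rested on single pools: leaving out a Duoxa-/- pool gave 2 (cage 1), 2 (cage 2) and 9 (cage 3), and leaving out a whole cage gave 1, 1 and 7 in the same order. With cage as a block the count was also 4, with Ppara in place of Hadha, and the background was 4.23%; 0 were higher, against 2.18% of all genes. The pools of the genotypes did not overlap for Pnpla2, Lipe and Pdk4, all lower in Duoxa-/-, which is 9.38% of the members against 6.46% of all genes, while 0 members were higher without overlap against 5.08% of all genes. Lower in all 3 cages were 5 members (15.6%) and higher in all 3 were 3 (9.38%), against 16.6% and 13.5% of all genes, so these counts lay near or under the background. The mean difference was below 0 for 22 of 32 members, against 53.9% of all genes. The median difference was -0.03 over the members and -0.01 over all genes, and 18 members (56.2%) differed by under 0.1 in size, against 58.5% of all genes. In whole mucosa, fewer cells of a type and less RNA per cell cannot be told apart.

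**Figure D1:**
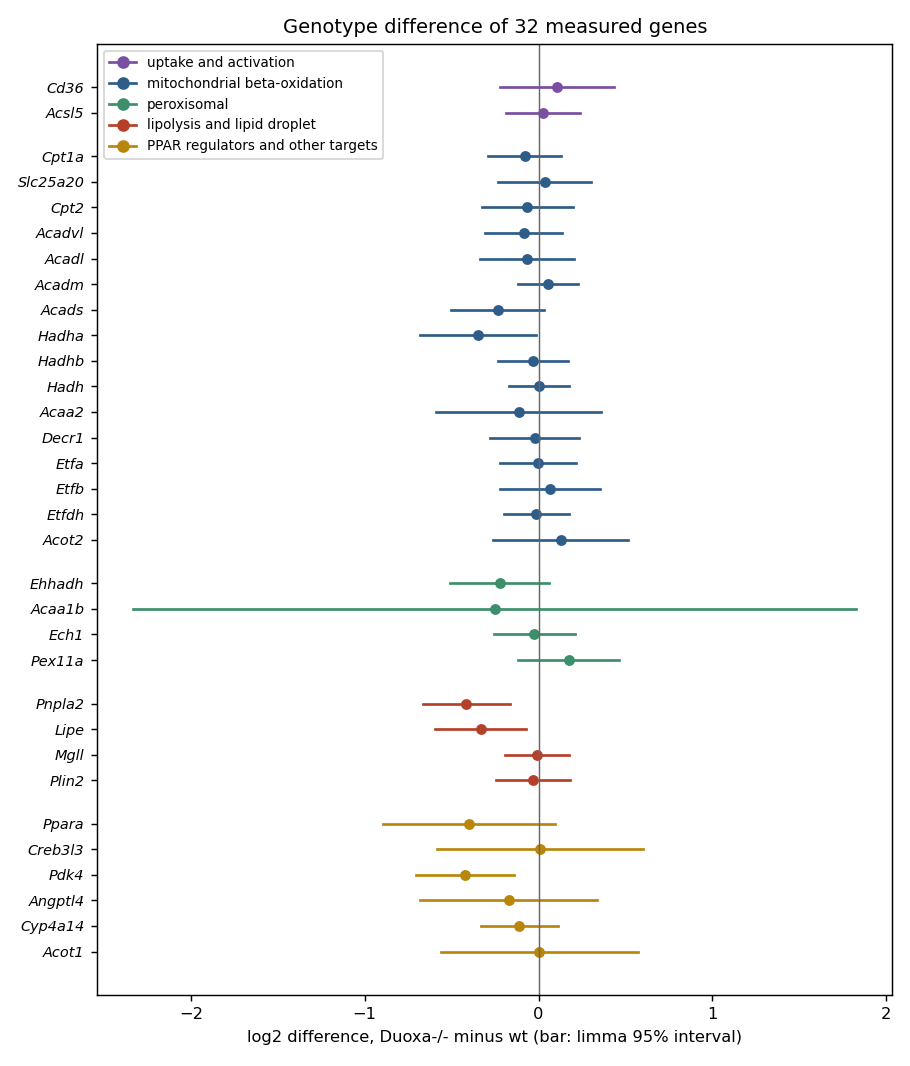
Log2 difference between Duoxa-/- and wt (x axis) for each of the 32 measured genes (rows, coloured by role), with limma's 95% confidence interval as a bar and n = 3 pools per genotype. The intervals of Hadha, Pnpla2, Lipe and Pdk4 lie below 0, and that of Acaa1b reaches from -2.33 to 1.83.

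The largest differences among the lipolysis genes were in the lipases that act on the first ester bonds. Pnpla2 encodes adipose triglyceride lipase, which takes the first fatty acid off a triglyceride. It read 9.17, 9.16 and 9.12 in the Duoxa-/- pools of cages 1, 2 and 3, against 9.76, 9.60 and 9.34 in the wt pools. All Duoxa-/- pools lay below all wt pools, with an SD of 0.03 in Duoxa-/- and 0.21 in wt pools (n = 3 each). The difference was -0.42 (SE 0.11, 95% interval -0.67 to -0.16; limma's adjusted p = 0.811), or 1.33-fold lower, with an unadjusted p of 0.0051. A second, dim probe set of the gene, at 4.74, 4.80 and 4.97 in Duoxa-/- and 4.83, 4.88 and 4.67 in wt pools, did not share the direction. The mean of both probe sets differed by -0.19.

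Lipe encodes hormone-sensitive lipase, which takes the next fatty acid off the diglyceride. It read 8.01, 7.94 and 8.35 in Duoxa-/- pools, against 8.40, 8.41 and 8.48 in wt pools. The groups did not overlap, and the Duoxa-/- pool of cage 3 came close to the lowest wt pool. The difference was -0.33 (SE 0.11, 95% interval -0.59 to -0.07; limma's adjusted p = 0.811), with an unadjusted p of 0.0192. A second, dim probe set differed by 0.04, -0.10 and -0.13 in cages 1, 2 and 3, and the mean of both differed by -0.20 at an unadjusted p of 0.0523. Without the Duoxa-/- pool of cage 1 the unadjusted p was 0.0679, without that of cage 2 it was 0.074, and it was also above 0.05 without the wt pool of cage 3 (0.0568), without cage 1 (0.0988) and without cage 2 (0.111).

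Mgll encodes monoglyceride lipase, which completes the release. It read 9.53, 9.53 and 9.52 in Duoxa-/- pools, against 9.51, 9.65 and 9.44 in wt pools, a difference of -0.01 (SE 0.08). Plin2, the coat protein of lipid droplets in most cells outside fat, averaged 10.94 ± 0.12 in Duoxa-/- and 10.98 ± 0.09 in wt pools (SD, n = 3 each), a difference of -0.03 (SE 0.09). For both, the groups overlapped. The 4 genes had a median difference of -0.18, against -0.01 over all genes, and medians of -0.18, -0.28 and -0.08 in cages 1, 2 and 3. Without probe sets that may read several transcripts, which removes the bright one of Pnpla2, the median was -0.07.

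Pdk4 encodes a pyruvate dehydrogenase kinase that keeps pyruvate out of the citric acid cycle while fat is burned, and it is a classical PPAR target. It read 6.50, 6.56 and 6.84 in Duoxa-/- pools, against 7.04, 7.24 and 6.88 in wt pools. The groups did not overlap, but in cage 3 the pools differed by only -0.05, against -0.54 and -0.68 in cages 1 and 2. The difference was -0.42 (SE 0.12, 95% interval -0.71 to -0.14; limma's adjusted p = 0.811), or 1.34-fold lower, with an unadjusted p of 0.00874. Limma's unadjusted p was 0.0689 without cage 1 and 0.0858 without cage 2. The Duoxa-/- pools of cages 1 and 2 lay just under the median of all probe sets (6.58).

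Ppara, the gene of the receptor itself, read 8.78, 8.49 and 9.36 in Duoxa-/- pools, against 9.23, 9.06 and 9.55 in wt pools. The Duoxa-/- pool was the lower one in each cage, by -0.45, -0.56 and -0.19. The groups overlapped because the Duoxa-/- pool of cage 3 lay above the wt pools of cages 1 and 2. The difference was -0.40 (SE 0.22; limma's adjusted p = 0.811), with an unadjusted p of 0.1. With cage as a block the interval was -0.64 to -0.16 and the unadjusted p 0.00543, and the adjusted p (0.741) stayed above 0.05. Its other 2 probe sets differed by -0.20 and -0.41, and in both the Duoxa-/- pool of cage 3 was the higher one, by 0.17 and 0.11.

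**Figure D2:**
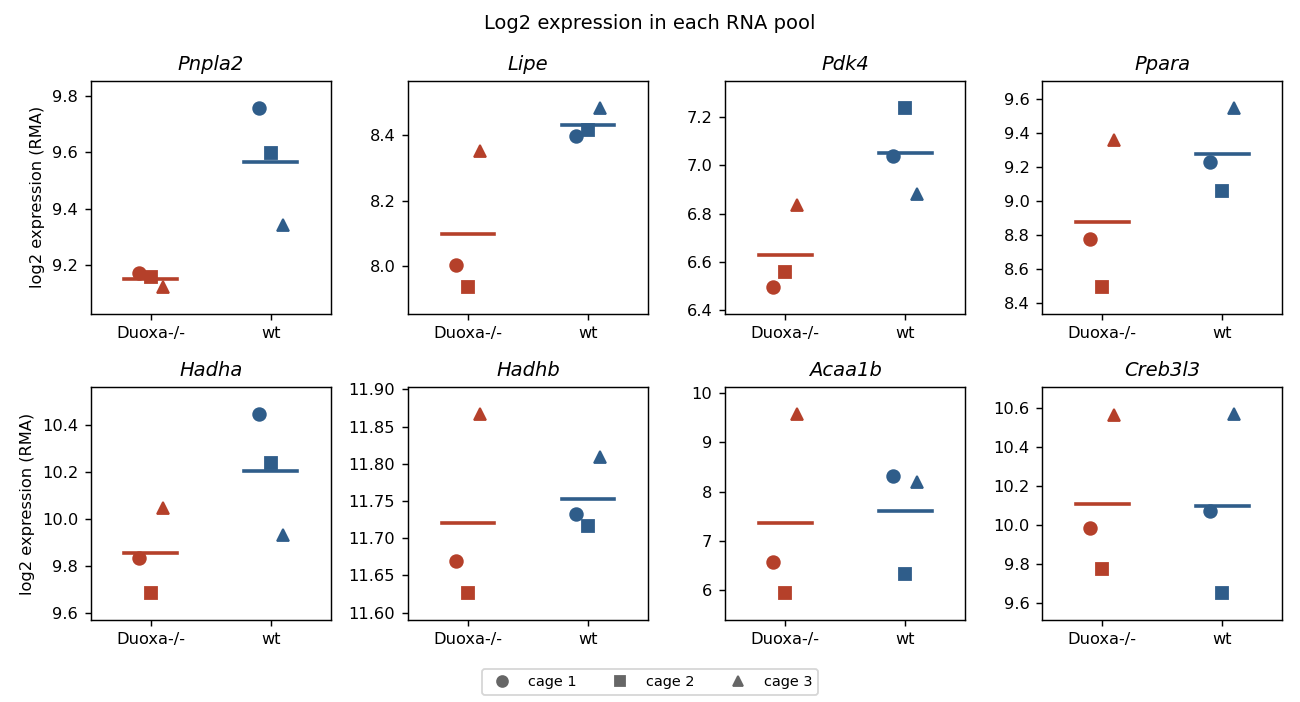
Log2 expression of 8 genes in each pool, with Duoxa-/- left and wt right, marker shapes for the cages and a line at the mean of the 3 pools; each panel has its own y axis. Pnpla2, Lipe and Pdk4 do not overlap between the groups, Creb3l3 follows the cage, and Acaa1b runs from 5.95 to 9.58 with wide gaps inside cages 1 and 3.

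The promoters of these 4 genes are shown because the probe set that stood for each read lower in the Duoxa-/- pool of every cage. Cyp4a14, the fifth such member, lay under the median of all probe sets in every pool, and no sequence is shown for it. Each window holds 250 bases before to 50 after a transcription start from RefSeq (GRCm38.p6), and capitals mark matches, on either strand, to the GC box GGGCGG, the CCAAT box CCAAT, the E-box CACGTG, the forkhead motif TGTTTAC and the nuclear receptor core AGGTCA. The motifs were chosen after the values were seen. Pnpla2 (chr7:141454938-141455237, plus strand) and Ppara (chr15:85735526-85735825, plus strand) each held 2 GC boxes and none of the other motifs. Pdk4 (chr6:5496229-5496528, minus strand) held 1 CCAAT box. Lipe has 2 starts in the table: the one at chr7:25395938-25396237 (minus strand) held 1 E-box and 6 GC boxes, and the one at chr7:25390063-25390362 (minus strand) held 1 forkhead motif.
Pnpla2: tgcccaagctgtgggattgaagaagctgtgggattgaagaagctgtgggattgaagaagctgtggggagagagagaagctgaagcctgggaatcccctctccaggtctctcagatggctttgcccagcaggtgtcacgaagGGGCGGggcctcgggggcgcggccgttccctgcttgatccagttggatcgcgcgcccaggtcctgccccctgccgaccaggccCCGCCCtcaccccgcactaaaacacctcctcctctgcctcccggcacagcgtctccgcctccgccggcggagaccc
Lipe, E-box start: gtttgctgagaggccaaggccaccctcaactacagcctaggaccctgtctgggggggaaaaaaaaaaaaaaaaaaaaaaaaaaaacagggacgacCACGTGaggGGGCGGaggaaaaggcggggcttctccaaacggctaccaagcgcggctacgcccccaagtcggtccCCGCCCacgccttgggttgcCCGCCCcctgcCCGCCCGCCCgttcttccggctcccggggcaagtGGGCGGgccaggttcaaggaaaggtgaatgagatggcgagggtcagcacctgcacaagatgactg
Lipe, forkhead start: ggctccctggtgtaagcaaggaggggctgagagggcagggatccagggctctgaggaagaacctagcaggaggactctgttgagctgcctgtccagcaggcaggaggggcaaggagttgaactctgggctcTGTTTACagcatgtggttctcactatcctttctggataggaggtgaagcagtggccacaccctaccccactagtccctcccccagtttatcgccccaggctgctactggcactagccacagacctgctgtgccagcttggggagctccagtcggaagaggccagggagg
Pdk4: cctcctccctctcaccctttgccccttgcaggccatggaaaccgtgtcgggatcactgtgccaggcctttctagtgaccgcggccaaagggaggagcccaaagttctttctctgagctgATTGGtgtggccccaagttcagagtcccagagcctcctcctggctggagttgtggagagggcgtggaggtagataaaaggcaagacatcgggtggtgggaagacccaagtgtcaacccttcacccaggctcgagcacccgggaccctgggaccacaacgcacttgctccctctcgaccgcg
Ppara: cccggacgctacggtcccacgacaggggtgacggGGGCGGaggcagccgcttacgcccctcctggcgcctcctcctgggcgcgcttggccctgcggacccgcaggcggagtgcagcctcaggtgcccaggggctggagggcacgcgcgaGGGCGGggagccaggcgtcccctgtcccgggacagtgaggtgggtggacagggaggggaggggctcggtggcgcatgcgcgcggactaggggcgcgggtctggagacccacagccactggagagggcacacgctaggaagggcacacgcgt

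Of the 32 measured members, 28 matched a promoter in the RefSeq table, with 31 windows in all. The PPAR element, a direct repeat of the receptor core AGGTCA with 1 base between the copies, was in 0 of them, and in 0.0396% of the 32851 windows of all genes. With 1 free base in each copy (AGGNCA) it was again in 0 members' windows and in 0.381% of all windows. At shares this small, 31 windows are too few to meet a match, so these counts do not tell whether the members hold PPAR elements. Sequence outside the windows and looser forms of the element were not searched. A single core stood in windows of 6 members, Acadm, Acadvl, Cd36, Cpt1a, Creb3l3 and Plin2, and in 16.3% of all windows. The E-box stood in windows of 3 of the 28 members, Lipe, Mgll and Plin2, and in 7.15% of all windows. The forkhead motif stood in windows of Lipe and Mgll and in 3.65% of all windows. GC boxes stood in windows of 20 of the 28 members and CCAAT boxes in windows of 14, against 35.7% and 37.4% of all windows. Members were counted if any of their windows matched, while the shares of all genes are per window. Members with more than 1 window thus had more ways to match, and the shares are not on the same unit. A match is a run of letters, and no binding was measured.

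Uptake and activation genes gave small differences. Cd36, a fatty acid translocase of the plasma membrane, read 9.22, 8.81 and 8.88 in Duoxa-/- pools, against 8.82, 9.10 and 8.67 in wt pools. Its direction changed with the cage, at 0.40, -0.29 and 0.20 in cages 1, 2 and 3, and the mean difference was 0.10 (SE 0.14). Acsl5, which joins fatty acids to coenzyme A and is abundant in enterocytes, averaged 13.16 ± 0.11 in Duoxa-/- and 13.13 ± 0.11 in wt pools (SD, n = 3 each).

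The carnitine shuttle genes gave small differences between the genotypes. Cpt1a, the outer carnitine palmitoyltransferase and the controlled step of entry, averaged 10.56 ± 0.10 in Duoxa-/- and 10.64 ± 0.11 in wt pools, a difference of -0.08 (95% interval -0.29 to 0.13). Its other 2 probe sets differed by -0.16 and -0.21, and the mean of all 3 by -0.15. Slc25a20, the carnitine and acylcarnitine carrier of the inner membrane, differed by 0.03 (SE 0.12), and Cpt2, which returns the acyl group to coenzyme A inside, by -0.06 (SE 0.11). In the Duoxa-/- pools of cages 1, 2 and 3, Cpt2 read 11.55, 11.23 and 11.65, against 11.50, 11.60 and 11.52 in the wt pools. Only the Duoxa-/- pool of cage 2 lay outside the narrow range of the wt pools on the low side. It was also the lowest of the 6 pools for Cpt1a and Slc25a20.

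Of the acyl-CoA dehydrogenases, which open each round, those of long and medium chains differed by under 0.1. Acadvl, for very long chains, differed by -0.09 (SE 0.10), Acadl, for long chains, by -0.07 (SE 0.12), and Acadm, for medium chains, by 0.06 (SE 0.08). Acads, for short chains, read 9.87, 9.63 and 9.97 in Duoxa-/- pools, against 10.08, 10.19 and 9.90 in wt pools. The Duoxa-/- pools of cages 1 and 2 lay below all wt pools and that of cage 3 did not. The difference was -0.24 (SE 0.12, 95% interval -0.50 to 0.03; limma's adjusted p = 0.811).

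Hadha and Hadhb encode the alpha and beta subunits of the mitochondrial trifunctional protein, which carries out the later steps on long chains. Hadha read 9.83, 9.69 and 10.05 in Duoxa-/- pools, against 10.45, 10.24 and 9.93 in wt pools. The Duoxa-/- pool was lower by 0.61 and 0.55 in cages 1 and 2 and higher by 0.12 in cage 3, so the groups overlapped. The difference was -0.35 (SE 0.15; limma's adjusted p = 0.811), with an unadjusted p of 0.0418, and it was -0.23 without the wt pool of cage 1, at an unadjusted p of 0.146. Hadhb read 11.67, 11.63 and 11.87 in Duoxa-/- pools, against 11.73, 11.72 and 11.81 in wt pools, a difference of -0.03 (SE 0.09). Its other 2 probe sets differed by -0.13 and 0.16. Each subunit was read by its own probe sets, and the difference between the subunits was not tested.

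The subunit genes are transcribed away from each other out of 1 short region, which is shown because both readings come from it. Their RefSeq starts lie 273 bases apart, and their promoter windows share 228 bases at chr5:30155003-30155230 (GRCm38.p6). The shared stretch, on the plus strand, which is the strand of Hadhb, held 1 GC box, in capitals.
Hadha and Hadhb: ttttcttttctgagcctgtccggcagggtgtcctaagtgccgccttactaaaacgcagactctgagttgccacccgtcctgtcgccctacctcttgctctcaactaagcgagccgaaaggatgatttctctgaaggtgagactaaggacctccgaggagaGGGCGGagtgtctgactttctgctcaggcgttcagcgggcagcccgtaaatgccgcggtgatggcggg

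Most of the remaining mitochondrial genes were close to level. Hadh, a dehydrogenase of the third step for shorter chains, averaged 13.86 in both groups, with an SD of 0.07 in Duoxa-/- and 0.01 in wt pools (n = 3 each). Decr1, which reduces double bonds so that unsaturated chains can enter, differed by -0.02 (SE 0.11). The electron transfer genes Etfa, Etfb and Etfdh, which pass electrons from the dehydrogenases to the respiratory chain, differed by -0.00, 0.07 and -0.01. Acaa2, the thiolase that ends each round, read 10.68, 10.58 and 11.34 in Duoxa-/- pools, against 11.09, 10.70 and 11.16 in wt pools. It differed by -0.40, -0.13 and 0.19 in cages 1, 2 and 3, with a mean of -0.11 (SE 0.21). Its other probe sets differed by -0.11 and 0.13, and in the latter the wt pool of cage 2 was the lowest, at 9.30. Acot2, a mitochondrial thioesterase that frees fatty acids from coenzyme A, read 9.27 in the Duoxa-/- pool of cage 3 and between 8.57 and 8.76 in the other 5 pools. Its mean difference was 0.13 (SE 0.17). Across the 16 mitochondrial genes, 11 were lower and 5 higher in Duoxa-/- pools, with a median difference of -0.03, and 12 differed by under 0.1 in size.

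Of the 4 peroxisomal genes, Acaa1b varied most of all members. It encodes a peroxisomal thiolase and is a strong PPAR target in rodents. Acaa1b read 6.57, 5.95 and 9.58 in Duoxa-/- pools, against 8.31, 6.34 and 8.19 in wt pools. The lowest and highest pools, both Duoxa-/-, were 12.4-fold apart, and the difference between genotypes was -1.74, -0.39 and 1.38 in cages 1, 2 and 3. The mean difference of -0.25 had an SE of 0.90. Its promoter (chr9:119157044-119157343, minus strand, GRCm38.p6) is shown as that of the member with the widest spread, and it held 4 matches to the CCAAT box on either strand, the last 2 overlapping.
Acaa1b: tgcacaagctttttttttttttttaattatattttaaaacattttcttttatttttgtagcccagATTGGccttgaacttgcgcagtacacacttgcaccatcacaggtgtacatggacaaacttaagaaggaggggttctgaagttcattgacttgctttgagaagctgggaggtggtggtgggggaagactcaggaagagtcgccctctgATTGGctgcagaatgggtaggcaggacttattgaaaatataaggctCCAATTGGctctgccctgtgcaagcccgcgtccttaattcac

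Ehhadh, the peroxisomal bifunctional enzyme, read 10.15, 10.09 and 10.55 in Duoxa-/- pools, against 10.55, 10.44 and 10.47 in wt pools. As for Acads, the Duoxa-/- pools of cages 1 and 2 lay below all wt pools and that of cage 3 did not, with a difference of -0.22 (SE 0.12). Ech1, an isomerase for unsaturated chains found in peroxisomes and mitochondria, differed by -0.02 (SE 0.10). Pex11a, which promotes peroxisome division, read 9.47, 9.49 and 9.78 in Duoxa-/- pools, against 9.19, 9.44 and 9.59 in wt pools. It was higher in the Duoxa-/- pool of every cage, by 0.28, 0.05 and 0.19, with overlap between the groups, and its second probe set differed by 0.00. The peroxisomal median was -0.12, with -0.16, -0.27 and 0.13 in cages 1, 2 and 3.

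Among the other PPAR targets and regulators, Creb3l3, a liver and gut transcription factor of lipid metabolism, read 9.98, 9.77 and 10.56 in Duoxa-/- pools, against 10.07, 9.65 and 10.57 in wt pools. The pools of a cage differed by -0.09, 0.12 and -0.01 in cages 1, 2 and 3, while the 6 pools spanned 0.92. Angptl4, a secreted inhibitor of lipoprotein lipase, read 9.66, 9.72 and 10.19 in Duoxa-/- pools, against 9.59, 10.04 and 10.46 in wt pools, a difference of -0.17 (SE 0.22). Acot1, a cytosolic thioesterase similar in sequence to Acot2, read 6.65, 6.42 and 7.46 in Duoxa-/- pools, against 6.61, 7.02 and 6.88 in wt pools. As with Acot2, the highest pool was the Duoxa-/- pool of cage 3, and the probe sets may not separate these paralogs. Cyp4a14, a microsomal fatty acid hydroxylase, lay between 4.74 and 5.10 in all 6 pools, under the median of all probe sets (6.58), and differed by -0.11 (SE 0.10). The other 31 of the 32 members reached that median in at least 1 group, against 64.4% of all genes. The 6 measured genes of this group had a median difference of -0.14, with -0.15, -0.44 and -0.05 in cages 1, 2 and 3.

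The difference between the genotypes varied from cage to cage. In cage 2, 28 of 32 members (87.5%) were lower in the Duoxa-/- pool, against 57.6% of all genes. In cage 1, 16 members were lower, against 49.4% of all genes, and in cage 3 only 9 were, against 49.9%. The members' median difference was -0.00, -0.23 and 0.06 in cages 1, 2 and 3, while that of all genes was 0.00, -0.03 and 0.00. The Duoxa-/- pool of cage 2 was the lowest of the 6 pools for 18 of 32 members (56.2%), against 19.8% of all genes, and for 12 of the 16 mitochondrial genes. With 1 pair of pools in a cage, the change of the difference between cages could not be tested. Members lowest in the Duoxa-/- pool of cage 2 were 17 (53.1%, against 19.1% of all genes) when a gene's probe sets were averaged. Without the wt pool of cage 1 they were 21 (65.6%, against 24.2%), but leaving out another pool can only keep or raise this count.

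**Figure D3:**
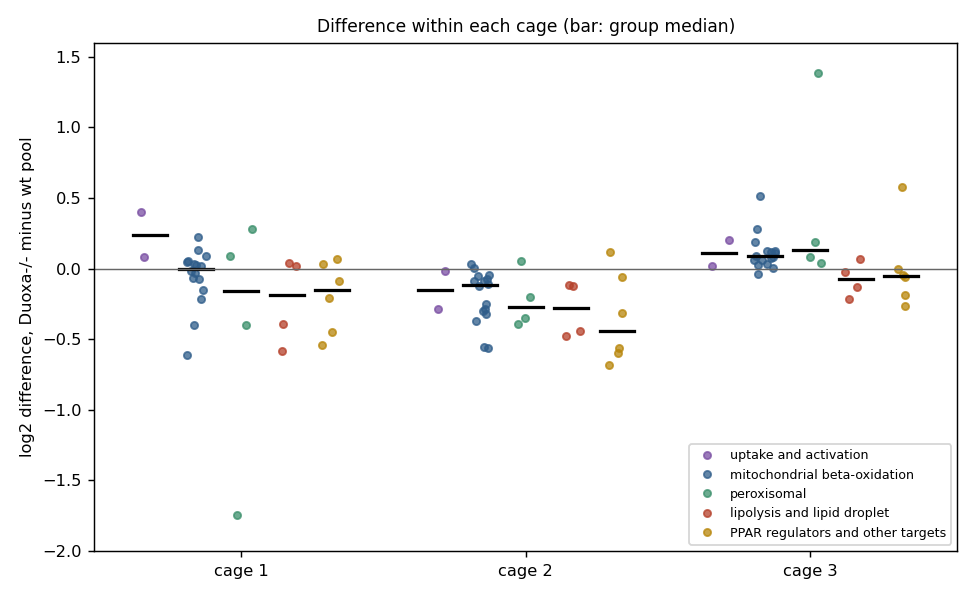
Log2 difference between the Duoxa-/- and the wt pool of the same cage (y axis) for the 32 genes in cages 1, 2 and 3 (x axis), 1 point per gene, coloured by role, with a bar at the median of each group. In cage 2 all 5 group medians lie below 0, and in cage 3 the uptake, mitochondrial and peroxisomal medians lie above 0.

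Many of these genes also read highest in both pools of 1 litter. Both pools of cage 3 lay above the other 4 pools for 13 of 32 members (40.6%), against 8.4% of all genes: Acsl5, Acadl, Hadhb, Acaa2, Etfa, Etfb, Etfdh, Ech1, Pex11a, Plin2, Ppara, Creb3l3 and Angptl4. Both lay below the others for Cyp4a14 alone, against 9.16% of all genes. Both pools of cage 2 lay below the other 4 for Cpt1a, Acadm, Acot2, Acaa1b and Creb3l3, 5 of 32 members, against 6.44% of all genes. This way of counting was chosen after the values were seen. The first count was 10 (31.2%, against 8.82% of all genes) when a gene's probe sets were averaged. Without the wt pool of cage 1 it was 17 (53.1%, against 14.2%), but leaving out 1 of the other 4 pools can only keep or raise it. In limma's F-test between cages with genotype in the fit, 0 of 32 members passed at an adjusted p under 0.05, against 2 of 18193 genes (0.011%). At an unadjusted p under 0.05 were 7 members (21.9%), against 6.21% of all genes. The smallest p was that of Creb3l3 (unadjusted p = 0.00029, adjusted p = 0.220), whose mean of both pools was 10.03, 9.71 and 10.57 in cages 1, 2 and 3. Angptl4 (adjusted p = 0.434) averaged 9.63, 9.88 and 10.33, and Ppara (adjusted p = 0.434) was lowest in cage 2, at 8.77, and highest in cage 3, at 9.45. Acaa1b (adjusted p = 0.645) had the widest spread, with 7.44, 6.14 and 8.88. Acaa2, Etfb and Pex11a completed the 7, each highest in cage 3. Litter, cage and any handling they shared cannot be told apart.

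**Figure D4:**
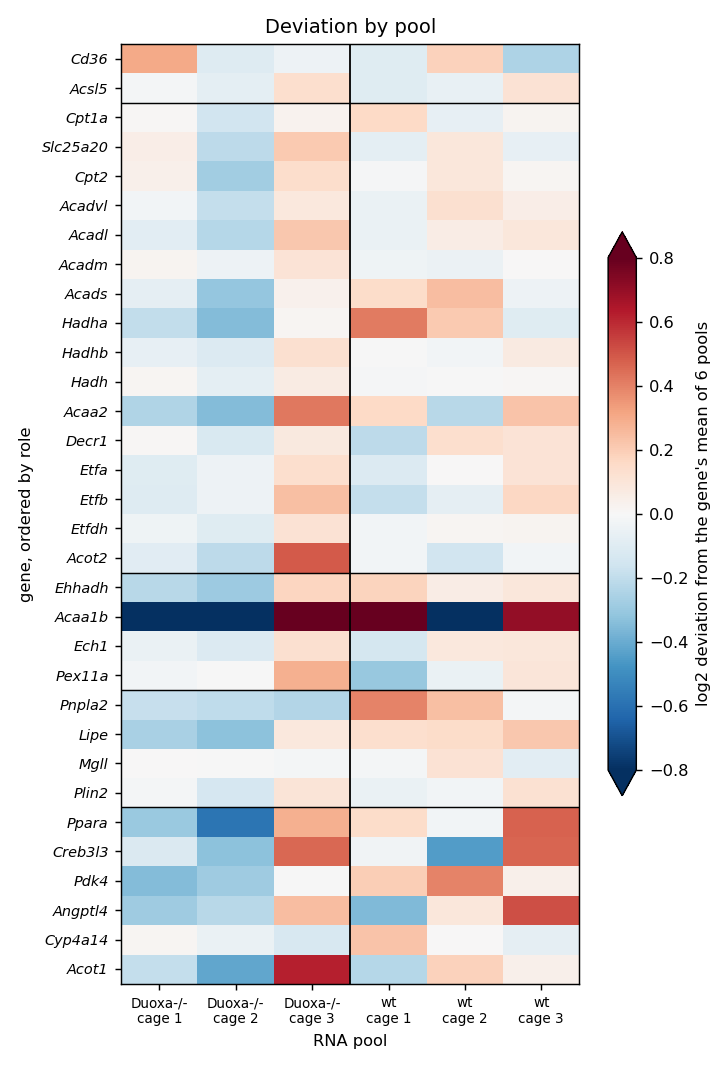
Deviation of each pool (columns, Duoxa-/- left of wt) from the gene's mean over the 6 pools on the log2 scale (colour, limited to 0.8 in size) for the 32 genes (rows, by role). The column of the Duoxa-/- pool of cage 2 is mostly blue, as the lowest of the 6 pools for 18 genes, and both cage 3 columns are mostly red.

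Other genes of the same pathways, 104 measured of 118 listed, gave a similar picture. With limma, 0 passed in either direction at an adjusted p under 0.05, while 8 (7.69%) were lower and 1 higher at an unadjusted p under 0.05, against 3.66% and 1.87% of all genes. Their median difference was -0.04, with -0.04, -0.14 and 0.03 in cages 1, 2 and 3. The Duoxa-/- pool of cage 2 was the lowest of the 6 for 40 of them (38.5%, against 19.8% of all genes) and both pools of cage 3 the highest for 25 (24.0%, against 8.4%). All genes named in the next sentences had an adjusted p of at least 0.811.

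Of 35 further PPAR regulators and targets, 24 were lower, with a median of -0.06. Pdk2, a second pyruvate dehydrogenase kinase, read 7.61, 7.72 and 7.79 in Duoxa-/- pools, against 8.33, 8.30 and 7.94 in wt pools, without overlap, a difference of -0.48 (SE 0.12). Slc27a4, a fatty acid transport protein of enterocytes, differed by -0.31 (SE 0.11) and the nuclear receptor Esrra, which drives mitochondrial genes, by -0.20 (SE 0.08). All 3 were lower in every cage.

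Of 20 further lipolysis and droplet genes, 13 were lower, with a median of -0.09. Abhd12, a lipase of lysophospholipids and monoglycerides, read 10.85, 10.84 and 10.87 in Duoxa-/- pools, against 11.22, 11.08 and 11.06 in wt pools, without overlap, a difference of -0.27 (SE 0.08). Cideb, a droplet protein of liver and gut, differed by -0.31 (SE 0.11) and Plin5, a droplet coat protein that touches mitochondria, by -0.20 (SE 0.09). Plin5 was dim, at 6.20 to 6.57 over the pools, under the median of all probe sets (6.58). Of 26 further peroxisomal genes, 16 were lower, with a median of -0.05, and the smallest p values were those of the peroxin genes Pex19 (-0.26, SE 0.09) and Pex5 (-0.15, SE 0.09) and the oxidase Acox3 (-0.20, SE 0.08).

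Of 19 further genes listed with mitochondrial fatty acid oxidation, 10 were lower and 9 higher. Acad11 (-0.26, SE 0.09), Cpt1c (-0.24, SE 0.11) and Acad10 (-0.18, SE 0.12) had the smallest p. Cpt1c was dim, at 5.80 to 6.36 over the pools, under the median of all probe sets (6.58). Of the 4 measured genes of ketone body metabolism, 3 were higher. Slc16a1, a monocarboxylate transporter, read 11.66, 11.91 and 11.59 in Duoxa-/- pools, against 11.50, 11.52 and 11.38 in wt pools, without overlap, a difference of 0.25 (SE 0.10). Acat1 differed by 0.10 (SE 0.08) and Bdh1 by -0.02 (SE 0.07).

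Markers of the cells that could hold these transcripts moved in part with the members. Of 19 measured enterocyte genes, 16 were lower in Duoxa-/- pools, against 53.9% of all genes. Their median differences were -0.13, -0.15 and -0.00 in cages 1, 2 and 3. Their mean level ranged from 11.61 to 12.04 in Duoxa-/- and from 11.88 to 12.08 in wt pools. The Duoxa-/- pool of cage 2 was the lowest of the 6 for 12 of them (63.2%, against 19.8% of all genes). Both pools of cage 3 were the highest for 8 (42.1%, against 8.4%). Fabp2 is also among the further PPAR regulators and targets, so the lists are not fully separate. The part of enterocyte content in the members' differences was not tested.

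Adipocyte markers bear on the lipases, which fat cells express strongly. Of 9 measured markers 6 were lower, and their mean level ranged from 8.39 to 8.89 in Duoxa-/- and from 8.75 to 8.93 in wt pools. Their median difference was -0.10, with 0.39, -0.35 and -0.08 in cages 1, 2 and 3. The markers named here were chosen after their values were seen. Pck1 (-0.58, SE 0.49) and Slc2a4 (-0.33, SE 0.11, limma's unadjusted p = 0.0152) were lower in every cage, Slc2a4 without overlap between the groups. Whether the Pck1 and Slc2a4 transcripts came from fat cells or from other cells of the mucosa was not tested. Thrsp differed by -0.31, Lep by -0.19 and Cidec by -0.10, with Lep dim, at 4.87 to 5.34. Adipoq and Fabp4 differed by -0.01 (SE 0.24) and 0.01 (SE 0.14), Car3 by 0.05 and Retn by 0.26. In cage 1 the adipocyte median was above 0, and Pnpla2 and Lipe were lower there by 0.59 and 0.39. In cages 2 and 3 the lipases and the adipocyte median were both lower. In cage 3 that median came from 6 of the 9 markers, from Thrsp (-0.71) to Lep (-0.08). Adipoq (0.00), Car3 (0.20) and Retn (0.30) were not lower there. The part of fat cell content in the lipases' values was not tested.

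Smooth muscle genes were lower for 13 of 14 markers, with medians of -0.66, 0.18 and -0.05 in cages 1, 2 and 3, and levels of 11.15 to 11.48 in Duoxa-/- and 11.30 to 11.79 in wt pools. The highest level was that of the wt pool of cage 1, and single markers ranged from Smtn (-0.45) to Hhip (0.18). T cell genes were lower for 10 of 11, with medians of 0.59, -0.64 and -0.27, and levels of 8.42 to 8.84 in Duoxa-/- and 8.37 to 9.08 in wt pools, from Cd8a (-0.38) to Cd2 (0.19). Crypt proliferation genes were higher for 12 of 13, with medians of 0.29, 0.11 and 0.02 in cages 1, 2 and 3, and 8 of them (61.5%) were higher in every cage, against 13.5% of all genes. They had levels of 9.72 to 9.99 in Duoxa-/- and 9.60 to 9.88 in wt pools, from Ccna2 (-0.00) to Rrm2 (0.39). For the genes that moved with these lists, their part was not tested. Respiratory chain genes, taken as a measure of mitochondrial transcripts, had a median of -0.01 over 16 genes and levels of 12.77 to 12.80 in Duoxa-/- and 12.79 to 12.82 in wt pools. Their median spread over the 6 pools was 0.12, against 0.38 for the 16 mitochondrial beta-oxidation genes and 0.33 over all genes. The beta-oxidation genes had lower levels, 11.06 to 11.39 in Duoxa-/- and 11.24 to 11.28 in wt pools. The Duoxa-/- pool of cage 2 was the lowest for 1 of the respiratory chain genes. Endothelial, goblet, Paneth, enteroendocrine, macrophage and B cell and plasma cell lists had medians between -0.08 and 0.06. The cage patterns were not particular to the members. Both pools of cage 3 were the highest for 5 of 9 enteroendocrine genes and for 0 macrophage, Paneth, T cell and crypt proliferation genes. They were the lowest for 8 of 10 macrophage genes. The Duoxa-/- pool of cage 2 was the lowest for 6 of 9 adipocyte markers and for 0 smooth muscle genes.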

How the data were processed

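The 6 columns hold log2 values of probe sets, which the authors made with RMA (affy), per the submitters' processing notes; the sources used here give no versions or settings. RMA corrects background, equalises the arrays and compresses differences of dim probe sets. Arrays have no read depth, and their number, 3 per genotype, limits the precision.

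The table has 45101 rows, of which 64 are control probe sets and were dropped. The platform annotation gives 1 symbol for 34945 probe sets, several for 932 and none for 9160. Symbols were checked through gene identifiers (34741 matched, 0 changed). The brightest probe set stood for each of the 18193 genes. More than 1 probe set exists for 17 members, and in 7 of these the signs differ.

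Genotypes were compared with limma 3.58.1 in R 4.3.3 (lmFit, eBayes, two-sided, Benjamini-Hochberg over all genes, adjusted p under 0.05) without a cage term, and cages with limma's F-test with genotype in the fit. SE and intervals are limma's. SD is the sample SD of 3 pools. The scripts were tested on simulated data. Python 3.11.15, pandas 2.3.3 and matplotlib 3.10.9 made the tables and plots. Pools were grouped by the genotype and cage in their titles.

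Members, gene lists and tests were chosen with earlier results of these data known. The text names all members, the 3 genes of each further pathway list with the smallest p, and of cell types the list as a whole, with its highest and lowest gene where the median is past 0.1 in size; other markers are checks of the tissue or are marked as chosen later. Alternatives were cage as a block, another probe set rule, another normalization, a filter on dim genes, array weights, another variance prior and leaving out pools or cages.

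The series' design text makes each cage a litter, so cage pairs the pools. Across genes, the 2 pools of cages 1, 2 and 3 deviated from their group means with correlations of -0.18, 0.16 and 0.34, against -0.44 to 0.40 for pools of different cages. The sources do not tell single animals apart, so p values measure the spread between pools.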

Additional observations from a re-analysis of the deposited data

How the results depend on the processing

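No member passed at an adjusted p under 0.05 under any alternative, and the lowest adjusted p over members and alternatives was 0.442, for Pnpla2 without the wt pool of cage 3. Of 479 member values under alternatives, 407 kept their direction and 72 turned it, and 10 members turned under none. With cage as a replicate block no call changed, and members at an unadjusted p under 0.05 were again 4. That count was 2 when a gene's probe sets were averaged, and between 1 (without cage 1 or cage 2) and 9 (Duoxa-/- pool of cage 3 left out) with pools or cages left out. Without pools or cages, Pnpla2 lay between -0.53 and -0.32, Lipe between -0.46 and -0.25, Pdk4 between -0.61 and -0.29, Ppara between -0.64 and -0.21 and Hadha between -0.58 and -0.22. Over all genes, the number between genotypes was 0 to 1 with pools or cages left out. Between cages it was 0 with averaged probe sets, 0 without dim genes, 0 with quantile normalization, and 0 to 53 with single pools left out (53 without the Duoxa-/- pool of cage 1). The lipolysis median was -0.0749 without probe sets that may read several transcripts, and the peroxisomal median ran from -0.23 to 0.12 (without the Duoxa-/- pool of cage 2) with pools or cages left out.

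With averaged probe sets, Acadl was 0.0114, Hadhb 0.0020 and Hadh -0.0499. Without probe sets that may read several transcripts, Pnpla2 was 0.0428, Angptl4 0.0501 and Hadh -0.0431, each then read by another probe set. With quantile normalization, Hadh was -0.0166. With array weights, Acsl5 was -0.0096, Hadh -0.0012, Etfb -0.0121, Mgll 0.0019, Creb3l3 -0.10 and Acot1 -0.0855. With pools or cages left out, these members crossed 0: Acaa1b ran from -1.36 to 0.49, Acaa2 from -0.35 to 0.0325, Acadl from -0.19 to 0.0448, Acadvl from -0.15 to 0.0315, Acot1 from -0.30 to 0.31, Acot2 from -0.0855 to 0.26, Acsl5 from -0.0320 to 0.0907, Angptl4 from -0.39 to 0.0436, Cd36 from -0.0422 to 0.30, Cpt2 from -0.16 to 0.0880, Creb3l3 from -0.22 to 0.24, Decr1 from -0.14 to 0.0930, Ech1 from -0.0998 to 0.0641, Etfa from -0.0686 to 0.0540, Etfb from -0.0398 to 0.16, Etfdh from -0.0721 to 0.0368, Hadh from -0.0316 to 0.0415, Hadhb from -0.11 to 0.0151, Mgll from -0.0545 to 0.0465, Plin2 from -0.0917 to 0.0274 and Slc25a20 from -0.0874 to 0.20. Except where another probe set was read, the cause was not tested.

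The alternatives for the cage patterns were chosen after seeing the data. Members with both pools of cage 3 above the others were 10 to 17 of 32, members lowest in the Duoxa-/- pool of cage 2 were 17 to 21, and members lower in the Duoxa-/- pool within cage 2 were 27 to 28. Dim probe sets, such as that of Cyp4a14, limit what can be read from small differences.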
